A study of Mus musculus with 4 samples.

Results

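Xlr3, Xlr4 and Xlr5 are groups of near-identical genes on the mouse X chromosome, with 3 copies each (Xlr3a, Xlr3b, Xlr3c, Xlr4a, Xlr4b, Xlr4c, Xlr5a, Xlr5b and Xlr5c). The 9 copies were taken by gene symbol from the deposited table of 55401 genes, and the family was selected on its measured values in Haspin-KO against WT cells, so that the differences of its members between these groups are given as a description and not as a test. RNA was sequenced from E14 mouse embryonic stem cells (mESCs), a male line, with 2 libraries of WT cells and 2 libraries of Haspin-KO cells, numbered as replicates 1 and 2 in each group. Haspin is the kinase that phosphorylates histone H3 at threonine 3 during mitosis, and its gene was disrupted with a pair of guide RNAs and Cas9, followed by the isolation of single clones chosen by their loss of that mark. The paper describes 2 Haspin-KO lines, and the labels do not say which line each library came from. Both groups grew without further treatment in medium with 15% serum, LIF and 2i, a pair of kinase inhibitors that hold mESCs in the naive state, and the paper's methods describe passage on mitomycin C-treated mouse embryonic fibroblasts or on gelatin. Nothing states that the libraries of a group came from separate cultures, so the spread between them may be technical.

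The Xlr genes were named for their expression in lymphocytes (X-linked lymphocyte-regulated), and their proteins share a domain with Sycp3, a protein of the synaptonemal complex that holds paired chromosomes along their axes in meiosis. Members of the wider family are known from germ cells, and Xlr3b, Xlr4b and Xlr4c are known as imprinted genes in mouse brain, expressed mainly from the maternal X. Of the 9 copies, 0 carried a Gene Ontology term, a KEGG ortholog or a KEGG pathway in the deposited annotation columns.

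In the mm10 coordinates of the table the 9 copies lie within 218.6 kb of the X chromosome (chrX:73074345-73292976), with 6 on the minus strand and 3 on the plus strand. From the low to the high coordinate their order is Xlr4a, Xlr3a, Xlr5a, Xlr5b, Xlr3b, Xlr4b, Xlr4c, Xlr3c and Xlr5c. The annotated interval of Xlr5a (chrX:73107635-73292976) spans most of the cluster, since 1 of its 4 annotated transcripts starts at the 5′ end of Xlr5c, and its exons share 101 bases with those of Xlr5c on the same strand. The other 7 copies share no exonic base with another annotated gene (GENCODE M21, GRCm38, in which 99.4% of the matched genes have the same start and end as in the table).

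The sequences before the start sites are shown because they hold runs that are shared within and between the subfamilies. The sequences are from RefSeq (GRCm38.p6), which has a window of 250 bases before to 50 bases after the start for all 9 copies. The 250 bases before the start are printed 5′ to 3′ for Xlr3b, Xlr3c, Xlr4b and Xlr5a. Capitals in the Xlr3 and Xlr4 lines mark the longest run found in the windows of all 6 Xlr3 and Xlr4 copies. Capitals in the Xlr5a line mark the motif TCGCGAGA.
Xlr3b (chrX:73191929-73192178, plus strand): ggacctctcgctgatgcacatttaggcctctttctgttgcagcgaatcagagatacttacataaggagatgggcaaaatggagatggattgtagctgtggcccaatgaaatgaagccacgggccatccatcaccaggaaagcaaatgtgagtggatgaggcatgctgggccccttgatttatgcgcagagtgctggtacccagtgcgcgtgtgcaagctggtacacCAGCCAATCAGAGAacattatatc
Xlr3c (chrX:73265391-73265640, minus strand): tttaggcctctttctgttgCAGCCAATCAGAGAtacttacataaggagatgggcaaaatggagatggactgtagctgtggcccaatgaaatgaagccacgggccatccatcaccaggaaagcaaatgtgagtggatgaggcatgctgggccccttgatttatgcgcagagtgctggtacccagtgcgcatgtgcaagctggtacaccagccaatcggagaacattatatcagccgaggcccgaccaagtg
Xlr4b (chrX:73214083-73214332, plus strand): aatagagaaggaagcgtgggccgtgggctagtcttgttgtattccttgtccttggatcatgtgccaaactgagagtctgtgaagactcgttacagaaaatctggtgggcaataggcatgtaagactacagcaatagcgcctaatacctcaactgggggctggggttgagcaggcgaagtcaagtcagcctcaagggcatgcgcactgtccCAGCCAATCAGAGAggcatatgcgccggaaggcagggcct
Xlr5a (chrX:73117703-73117952, minus strand): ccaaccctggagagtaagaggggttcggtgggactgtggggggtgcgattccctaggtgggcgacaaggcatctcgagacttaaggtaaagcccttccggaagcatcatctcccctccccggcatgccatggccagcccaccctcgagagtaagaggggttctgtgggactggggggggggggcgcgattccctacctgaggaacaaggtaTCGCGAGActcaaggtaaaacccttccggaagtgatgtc

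The run shared by the Xlr3 and Xlr4 windows, CAGCCAATCAGAGA, is 14 bases long, contains a CCAAT box, and occurred in 16 of 32544 RefSeq windows of the same length (0.0492%, either strand), the 6 of the family included. It began 47, 40 and 17 bases before the start in Xlr4a, Xlr4b and Xlr4c and 24 bases before it in Xlr3b. In Xlr3c it began 231 bases before the start, and Xlr3a held it at 150 bases before and again 20 bases after the start. The marked runs of Xlr3b and Xlr3c are not counterparts of each other. Where Xlr3c has its run Xlr3b reads cagcgaatcagaga, and where Xlr3b has its run Xlr3c reads cagccaatcggaga. The 5 motifs searched on both strands were CCAAT, GCATGCGC (the core of the NRF1 motif), TCGCGAGA, TATAAA and CACGTG (an E-box), of which CCAAT lies inside the shared run. CCAAT was found in 8 of the 9 windows, all but that of Xlr5c, and in 37.4% of all windows. GCATGCGC was found in the 3 Xlr4 windows and in 2.73% of all windows, and TCGCGAGA in the windows of Xlr5a and Xlr5b and in 1.00% of all windows. TATAAA and CACGTG were in 0 of the 9 windows, against 13.6% and 7.17% of all windows. The Xlr5a and Xlr5b windows held 16 CpG dinucleotides each, more than in 66.8% of all windows, whereas the Xlr3 and Xlr4 windows held 5 to 8, around the median of 7. The RefSeq start of Xlr5c lies 2461 bases downstream of the start of its longest coding transcript in GENCODE, inside exon 2, so its window, with 1 CpG, is not the counterpart of the windows of Xlr5a and Xlr5b and is not printed.

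Most copies share long stretches of sequence with another copy. The longest coding transcripts, of 1162 to 1656 bases and 9 exons each, were 98.5% to 99.1% identical within Xlr3, 98.7% to 99.1% within Xlr4 and 99.3% to 99.4% within Xlr5, against 63.2% to 73.7% between subfamilies. Of all stretches of 100 bases in the annotated transcripts of a copy, the share found in no other annotated gene was 75.6% for Xlr3a, 64.9% for Xlr3b and 53.3% for Xlr3c. It was 40.1% for Xlr4a, 62.0% for Xlr4b, 48.1% for Xlr4c, 30.9% for Xlr5a, 18.7% for Xlr5b and 33.3% for Xlr5c. Xlr5b therefore had the least sequence of its own by this count and Xlr3a the most. The stretches that were shared lay mainly in other copies of the same subfamily. The count includes transcripts that retain an intron, of which Xlr3a and Xlr3b have 2 each, Xlr4b has 1 and Xlr3c has 0. Shares for the spliced transcripts alone were not computed. How the authors' counting treated reads that fit several places is not given in the sources used here, so the division of reads between copies is uncertain, and the summed counts of a subfamily are given beside each copy.

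**Figure D1:**
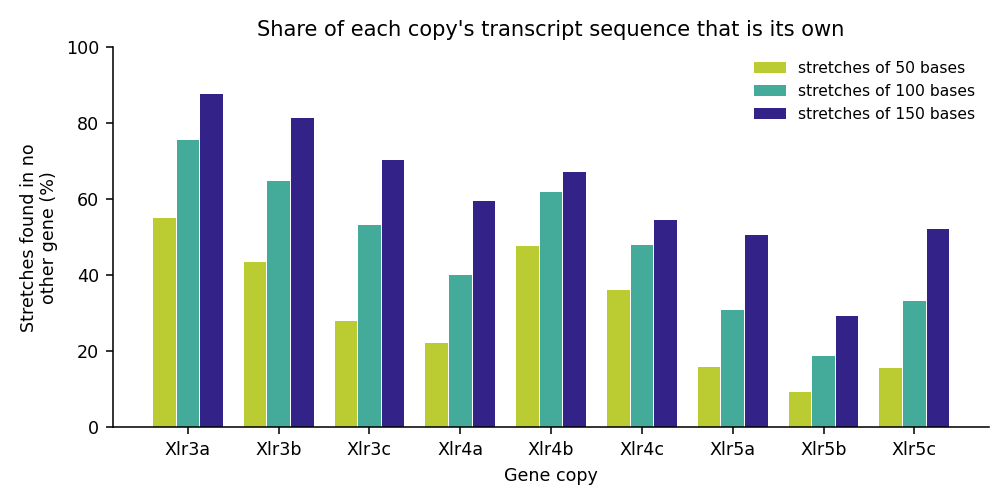
Share (%) of all stretches of 50, 100 or 150 bases in the annotated transcripts of each copy that occur in no other GENCODE M21 gene on either strand. Transcripts that retain an intron are included. At every stretch length Xlr5b has the lowest bar (9.27%, 18.7% and 29.4%) and Xlr3a the highest (55.2%, 75.6% and 87.8%).

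The libraries held 14207828 to 21834847 counted reads, and the floor of 3 counts corresponded to 0.137 to 0.210 CPM. CPM are counts relative to the library's total over the genes that passed the filter on low counts, scaled by the TMM factors. Haspin itself had 875 and 619 counts in the WT libraries and 149 and 209 counts in the Haspin-KO libraries, in the direction of the labels. Of the 15580 genes tested, 51 were called higher and 78 lower in Haspin-KO cells, where a call needed both a fold change over 2 and an adjusted p under 0.05 in edgeR's quasi-likelihood test (Benjamini-Hochberg over all genes tested). The marker genes of mESCs summed to 6300 to 6983 CPM in the 4 libraries, and 0 of these 10 genes passed the test (3 were lower at an unadjusted p under 0.05, and DESeq2 called 0).

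All 9 copies had counts far above the floor in every library and all 9 passed the filter on low counts. All 9 were higher in both Haspin-KO libraries than in both WT libraries. The share of all genes tested that separate in this way was not counted, and nothing is read from it. Both limits of a call were met by 8 of the 9, against 0.327% of all genes tested called higher and 0.828% called in either direction, and nothing is read from this count since the family was selected on this difference. Xlr5c was the copy that did not pass. Limma on the deposited FPKM called 0 of the 9, and 5 were called without WT replicate 2. The summed counts of the 9 copies were 97.9 and 97.9 CPM in the WT libraries and 233.2 and 230.6 CPM in the Haspin-KO libraries, a log2 fold change of 1.24 (standard error, SE, 0.071) or 2.37-fold. In these bulk samples a larger share of cells with Xlr RNA and more Xlr RNA per cell cannot be told apart.

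**Figure D2:**
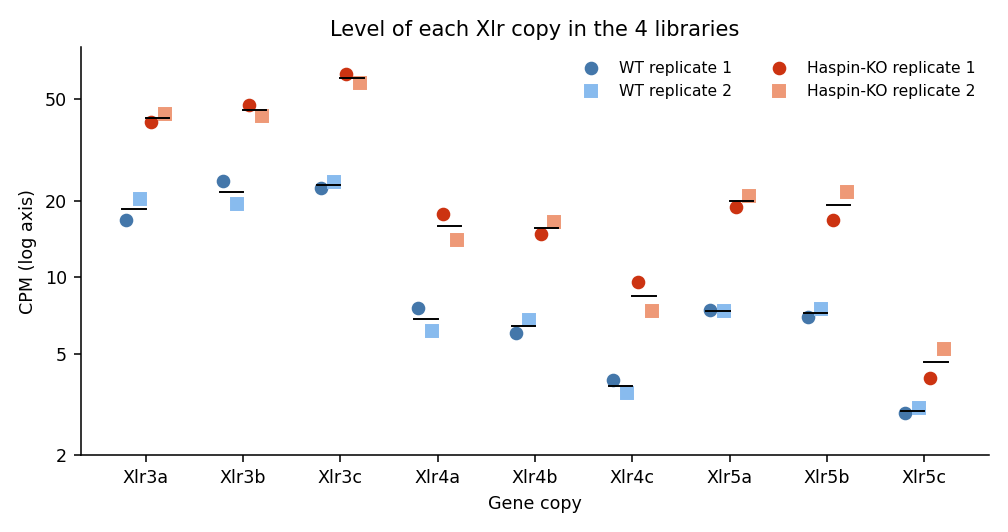
Level of each Xlr copy in CPM (log axis) in the 2 WT libraries (blue) and the 2 Haspin-KO libraries (red), with circles for replicate 1, squares for replicate 2 and a black line at each group's mean. In every copy both Haspin-KO points lie above both WT points, with the smallest gap in Xlr5c (WT 2.93 and 3.06 CPM, Haspin-KO 4.04 and 5.25 CPM).

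The Xlr3 copies gave the most reads of the family. Xlr3a had 16.8 and 20.4 CPM in the WT libraries and 40.9 and 43.9 CPM in the Haspin-KO libraries, a log2 fold change of 1.19 (SE 0.122). Xlr3b had 23.9 and 19.3 CPM in WT and 47.4 and 43.1 CPM in Haspin-KO (log2 fold change 1.06, SE 0.124), the smallest difference of the 8 copies that passed. Xlr3b was also the copy nearest to the 2-fold limit, and it fell below that limit without WT replicate 2 (0.92) or without Haspin-KO replicate 1 (0.99). Xlr3c had 22.3 and 23.8 CPM in WT and 63.0 and 58.1 CPM in Haspin-KO (log2 fold change 1.39, SE 0.098). The groups did not overlap in any of the 3 copies, and the summed Xlr3 counts, 63.0 and 63.5 CPM in WT and 151.3 and 145.1 CPM in Haspin-KO, gave a log2 fold change of 1.23 (SE 0.077).

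The Xlr4 copies were lower in level and differed by like amounts. Xlr4a had 7.55 and 6.17 CPM in WT and 17.7 and 14.01 CPM in Haspin-KO (log2 fold change 1.20, SE 0.180). Xlr4b, 1 of the copies known as imprinted in brain, had 6.04 and 6.81 CPM in WT and 14.8 and 16.5 CPM in Haspin-KO (log2 fold change 1.29, SE 0.160). Xlr4c, likewise imprinted in brain, had 3.94 and 3.52 CPM in WT and 9.61 and 7.35 CPM in Haspin-KO (log2 fold change 1.18, SE 0.217). The groups did not overlap in any of them. Replicate 1 was above replicate 2 in both groups for Xlr4a and Xlr4c and below it in both groups for Xlr4b. The Xlr4 sum was 17.5 and 16.5 CPM in WT and 42.1 and 37.9 CPM in Haspin-KO, a log2 fold change of 1.23 (SE 0.113). Without WT replicate 2, Xlr4a (log2 fold change 1.07) and Xlr4c (1.11) did not pass on their adjusted p. Xlr4c also did not pass without WT replicate 1 (1.26), again on its adjusted p, or without Haspin-KO replicate 1 (0.98), on its fold change.

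Within Xlr5, the copies a and b differed from copy c. Xlr5a had 7.42 and 7.38 CPM in WT and 18.9 and 20.8 CPM in Haspin-KO (log2 fold change 1.42, SE 0.143), the largest difference of the family. Xlr5b, which shares most of its sequence with Xlr5a, had 7.00 and 7.50 CPM in WT and 16.8 and 21.6 CPM in Haspin-KO (log2 fold change 1.40, SE 0.167). Xlr5c had 2.93 and 3.06 CPM in WT and 4.04 and 5.25 CPM in Haspin-KO (log2 fold change 0.63, SE 0.245). Its groups did not overlap, but its lowest Haspin-KO library was only 1.32 times its highest WT library, against 1.80 to 2.55 times in the other 8 copies. In raw reads Xlr5c stood at 64 and 53 counts in WT and 58 and 75 counts in Haspin-KO. The Xlr5 sum was 17.3 and 17.9 CPM in WT and 39.8 and 47.6 CPM in Haspin-KO, a log2 fold change of 1.31 (SE 0.120). The median log2 fold change of the 9 copies was 1.20, against -0.004 over all genes tested.

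**Figure D3:**
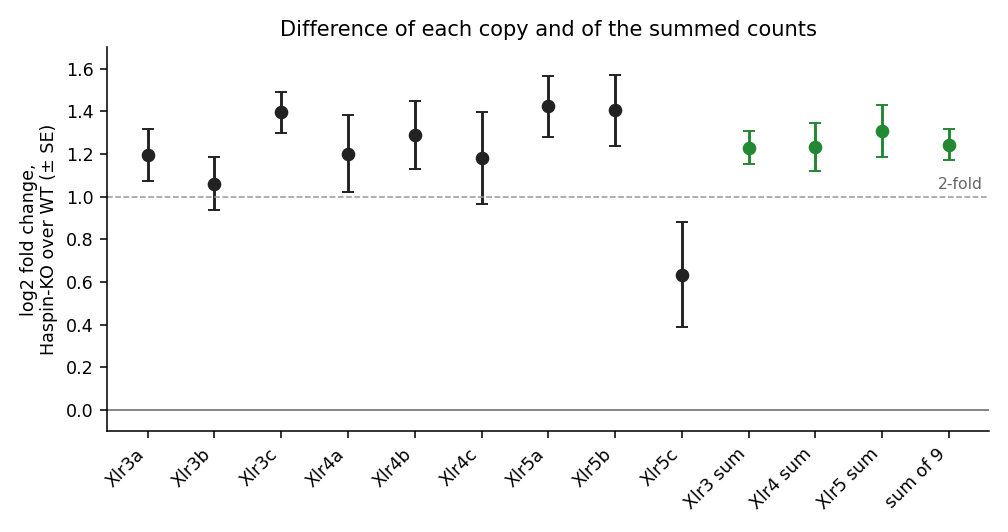
Log2 fold change of Haspin-KO over WT (points, with bars for ± SE from edgeR) for the 9 copies (black) and for the summed counts of Xlr3, Xlr4, Xlr5 and the whole family (green), with a dashed line at 2-fold. The 3 subfamily sums lie between 1.23 and 1.31, and Xlr5c (0.63) is the copy below the line.

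The make-up of the family's reads was close in both groups. Xlr3 gave 64.6% of the family's counts in WT and 63.9% in Haspin-KO (means of 2 libraries), Xlr4 gave 17.4% and 17.2%, and Xlr5 gave 18.0% and 18.8%. Single copies moved by at most 2.57 percentage points. Xlr3b gave 22.1% ± 3.30 in WT and 19.5% ± 1.17 in Haspin-KO, and these libraries overlapped, while Xlr3c gave 23.5% ± 1.04 and 26.1% ± 1.29, without overlap (SD, n = 2). Xlr5c made up 16.9% (95% exact binomial interval 13.3% to 21.0%) and 17.0% (13.0% to 21.7%) of the Xlr5 counts in the WT libraries and 10.2% (7.80% to 12.9%) and 11.0% (8.77% to 13.6%) in the Haspin-KO libraries. These intervals cover counting error only, and the lower share of Xlr5c in both Haspin-KO libraries was singled out after its values were seen and was not tested.

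Levels can be compared between copies only per length, and the length used changes the order. Neither length used here corrects for sequence shared between copies. The share of stretches of 100 bases found in no other gene was 75.6% for Xlr3a but 18.7% for Xlr5b. The part of shared sequence in these levels was not tested. In the deposited FPKM (counts scaled by exonic length and library total) Xlr3c stood at 14.5 ± 0.559 in WT and 38.3 ± 2.76 in Haspin-KO, well above Xlr3b (5.70 ± 0.877 and 12.0 ± 0.997) and Xlr3a (4.58 ± 0.594 and 10.5 ± 0.375; SD, n = 2). The exonic length behind these values is 1584 bases for Xlr3c but 3780 for Xlr3b and 4045 for Xlr3a, since each of the latter has 2 annotated transcripts that retain an intron. Per kilobase of the longest coding transcript, of 1564 to 1645 bases in Xlr3, the WT levels were 14.6 ± 0.637 CPM per kb for Xlr3c, 13.8 ± 2.07 for Xlr3b and 11.3 ± 1.53 for Xlr3a. On this scale neighbours in that order overlapped in WT, whereas in Haspin-KO Xlr3c (38.2 ± 2.18 CPM per kb), Xlr3b (28.9 ± 1.96) and Xlr3a (25.8 ± 1.31) did not.

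Below the Xlr3 copies, the order per kilobase of coding transcript in WT was Xlr4a (5.91 ± 0.840 CPM per kb), Xlr4b (4.93 ± 0.415), Xlr5a (4.48 ± 0.0137) and Xlr5b (4.39 ± 0.212), among which only the libraries of Xlr5a and Xlr5b overlapped. In Haspin-KO the means of these 4 copies lay between 11.6 and 13.6 CPM per kb, and each overlapped with its neighbour in the order. Xlr4c (2.49 ± 0.197 CPM per kb in WT, 5.65 ± 1.06 in Haspin-KO) and Xlr5c (1.81 ± 0.0545 and 2.81 ± 0.519) were the lowest copies in both groups and overlapped with no other copy. These orders are a description. All copies were measured in the same 2 libraries of each group, and the orders were not tested.

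**Figure D4:**
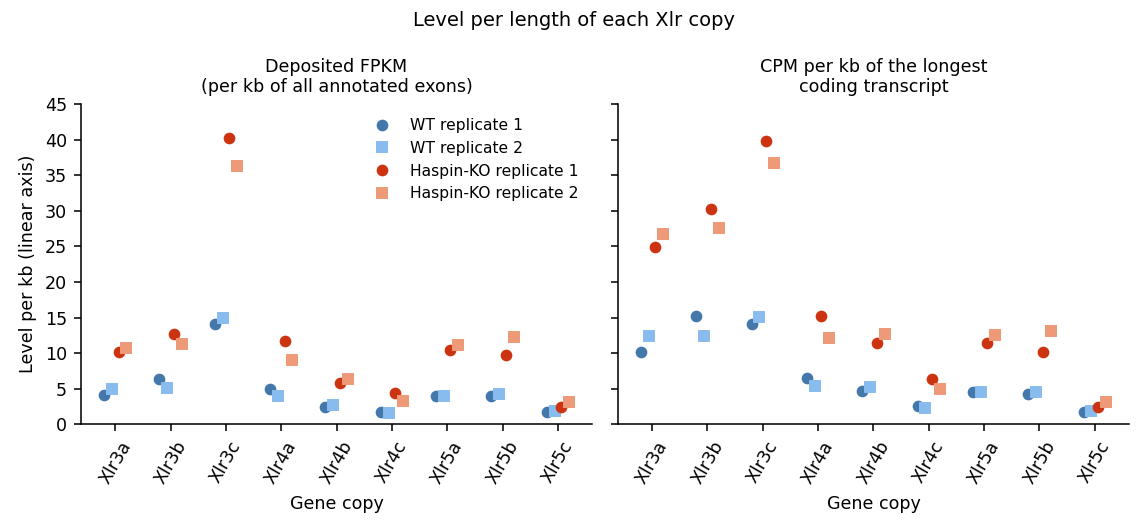
Level of each copy per kb in the 2 WT (blue) and 2 Haspin-KO (red) libraries on a linear axis, as the deposited FPKM (left) and as CPM per kb of the longest coding transcript (right). Xlr3c stands apart on the left (WT mean 14.5, Haspin-KO mean 38.3 FPKM), whereas on the right Xlr3a and Xlr3b rise to 11.3 and 13.8 CPM per kb in WT.

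The other genes of the Sycp3-like group were not called. Of 11 further rows with such symbols, 4 had any count and 2 could be tested. Sycp3 (chromosome 10) had 134 and 86 counts in WT and 83 and 77 in Haspin-KO (log2 fold change 0.00, SE 0.209, adjusted p = 0.994 in edgeR). Xlr, the founding gene of the family on another stretch of the X chromosome, had 40 and 31 counts in WT and 17 and 28 in Haspin-KO (log2 fold change -0.20, SE 0.351, adjusted p = 0.788 in edgeR). The pseudogenes Xlr3d-ps and Xlr4e-ps held at most 3 counts in any library. At an unadjusted p under 0.05 edgeR gave 0 of the 2 tested genes, and DESeq2 called 0.

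Genes that lie among the copies or beside them were then compared, since the rule did not use them. Of 43 other rows within 500 kb of a copy, 19 could be tested, 0 were called higher and 1 was called lower, with a median log2 fold change of 0.09 (7 were higher at an unadjusted p under 0.05, and DESeq2 called 0 higher). This median moved with the window and the filter, to 0.31 for the 12 genes tested within 200 kb, to -0.01 for 36 within 1000 kb and to 0.29 in DESeq2, which took in 32 genes. The gene called lower was Bgn, which encodes biglycan, a matrix proteoglycan of fibroblasts and other mesenchymal cells. It had 28.4 and 18.0 CPM in WT and 1.25 and 1.54 CPM in Haspin-KO (log2 fold change -4.05, SE 0.286, adjusted p = 0.000165 in edgeR). The 14 other genes tested outside the cluster ran from -0.28 to 0.55 with a median of 0.05, and none of them was called. The highest of them was Gm18336 (0.55, adjusted p = 0.0507 in edgeR).

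Inside the cluster, 4 genes that are not Xlr copies could be tested, and all 4 were higher in Haspin-KO, with a median log2 fold change of 0.86, but 0 passed the test (3 had an unadjusted p under 0.05, and DESeq2 called 0). DXBay18 had 30 and 11 counts in WT and 38 and 47 in Haspin-KO (log2 fold change 1.52, SE 0.385, adjusted p = 0.0726 in edgeR). Its interval overlaps the 5′ end of Xlr5b on the opposite strand, and it was called without the filter on low counts (adjusted p = 0.00312 in edgeR) and without Haspin-KO replicate 1 (adjusted p = 0.00512 in edgeR). Gm14685, which overlaps the 5′ end of Xlr5a on the opposite strand, had 16 and 17 counts in WT and 30 and 26 in Haspin-KO (log2 fold change 1.20, SE 0.362, adjusted p = 0.110 in edgeR). The strand setting of the counting is not given in the sources used here. The annotated exons of both genes share no base with those of Xlr5a or Xlr5b. Whether reads of the Xlr copies were counted in these genes was not tested. F8a (log2 fold change 0.42, adjusted p = 0.228 in edgeR) and Spin2d (0.51, adjusted p = 0.545 in edgeR) differed less. Whether the genes inside the cluster differ from those outside it was not tested.

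**Figure D5:**
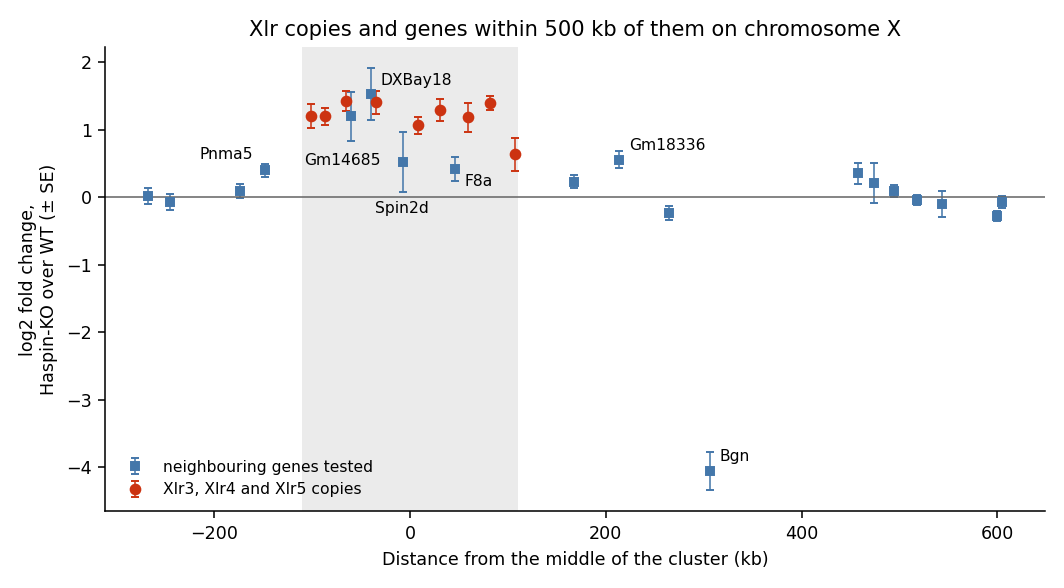
Log2 fold change of Haspin-KO over WT (± SE from edgeR) against the distance in kb from the middle of the Xlr cluster (grey band) for the 9 copies (red circles, at their RefSeq start) and the 19 tested genes within 500 kb (blue squares, at the middle of the gene). The copies lie between 0.63 and 1.42, the 15 tested genes outside the band lie between -0.28 and 0.55 apart from Bgn (-4.05), and the 4 other genes inside the band lie between 0.42 and 1.52.

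On the whole X chromosome few genes passed. Of 548 X-linked genes tested besides the 9 copies, 1 was called higher and 2 lower, with a median log2 fold change of 0.06, against -0.01 for 14999 autosomal genes. Those called were Xist, the RNA that coats the inactive X (11.0 and 9.06 CPM in WT, 24.6 and 16.9 CPM in Haspin-KO, log2 fold change 1.05, adjusted p = 0.0268 in edgeR), and, in the other direction, Bgn and the basement membrane collagen gene Col4a5 (-2.50, adjusted p = 0.0198 in edgeR). Xist was not called without WT replicate 1, WT replicate 2 or Haspin-KO replicate 1, after thinning or by limma. Col4a5 was not called without either of the WT replicates, by DESeq2, with a minimum of 10 counts or by limma. Y-linked genes summed to 183.6 and 207.4 CPM in WT and 85.5 and 116.3 CPM in Haspin-KO, and 3 of the 9 tested were called lower. Their part in the Xlr difference was not tested.

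Genes that work with Sycp3, or that were listed for a part in the silencing of germline genes, were counted from whole lists. For scale, edgeR gave 72 higher and 45 lower of the 548 other X-linked genes at an unadjusted p under 0.05. The share of all genes tested under that limit was not counted, and nothing is read from the unadjusted counts of the lists. Of 18 tested genes of the meiotic chromosome axis and early meiosis, 0 were called in either direction, with a median log2 fold change of 0.10 (edgeR gave 4 higher and 2 lower at an unadjusted p under 0.05, and DESeq2 called 0). The lowest p-values were those of Ythdc2, an RNA helicase needed for meiotic entry (log2 fold change 0.49, adjusted p = 0.0613 in edgeR), and Sycp1, a synaptonemal complex protein (0.63, adjusted p = 0.0814 in edgeR). Stra8, the gene that starts meiosis in response to retinoic acid, had the opposite sign (-0.65, adjusted p = 0.0890 in edgeR). Of 24 tested X-linked germline genes, 0 were called (1 higher and 3 lower at an unadjusted p under 0.05, and DESeq2 called 0). The lowest p was that of Rhox5, a homeobox gene of the reproductive tract, which was lower in Haspin-KO with a fold change under 2 (log2 fold change -0.81, adjusted p = 0.0412 in edgeR).

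Of 25 genes listed as repressors of germline genes, all 25 could be tested and 0 were called, with a median log2 fold change of 0.01. At an unadjusted p under 0.05 edgeR gave 5 higher and 1 lower, and DESeq2 called 0. The list also holds Tet1 and Tet2, which are not established repressors of these genes. Tet1 (0.36, adjusted p = 0.200 in edgeR) was among the 5 higher. Atrx, a chromatin remodeller of repeats (0.31, adjusted p = 0.0702 in edgeR), and the DNA methyltransferase gene Dnmt3b (0.30, adjusted p = 0.0717 in edgeR) were nearest to the threshold, both on the higher side. Dnmt3a had a log2 fold change of 0.23 (adjusted p = 0.215 in edgeR) and the maintenance factor Uhrf1 one of -0.12 (adjusted p = 0.368 in edgeR). DNA methylation itself was not measured.

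The genes whose levels across the 4 libraries were most like those of the summed family were sought among 9496 genes with a mean of at least 10 CPM, by the Euclidean distance of log2 CPM relative to each gene's own mean. Among the nearest 5 were Rbm20, a splicing regulator of muscle titin (distance 0.145), Gm13034 (0.221), Zscan4d, a gene of the 2-cell embryo (0.233), and Kcnq1ot1, an imprinted antisense RNA (0.268). Rbm20 had 8.61 and 8.77 CPM in WT and 18.3 and 19.5 CPM in Haspin-KO, and Zscan4d had 18.1 and 17.0 CPM in WT and 50.1 and 41.7 CPM in Haspin-KO. The distances of the Xlr copies that reached 10 CPM from their own sum were 0.177 to 0.314. The other genes were picked as the nearest of 9496, whereas the copies are themselves part of the sum. These distances are therefore not like for like. Likeness over 4 libraries is a description and rests mainly on the difference between the groups.

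Markers of 2-cell-like cells and fibroblasts differed between the groups, while 0 genes of the germ cell and lymphoid lists were called. The 2-cell-like list holds genes of the rare mESCs that resemble the 2-cell embryo. Its sum was 95.1 and 88.3 CPM in the WT libraries against 238.1 and 177.8 CPM in the Haspin-KO libraries. Of its 13 tested genes, 7 were called higher (51 of all 15580 genes tested), Zscan4c and Zscan4d among them. The fibroblast list had a sum of 137.2 and 108.4 CPM in WT against 33.4 and 34.5 CPM in Haspin-KO. Of its 9 tested genes, 5 were called lower (Col1a1, Col1a2, Col3a1, Prrx1 and Postn), against 78 of all 15580. Lum was at 0 in all libraries. The germ cell list had a sum of 76.1 and 83.2 CPM in WT against 120.4 and 98.5 CPM in Haspin-KO. All 8 of its genes had a log2 fold change above 0, against 7690 of all 15580 genes tested. Of the 8, 0 were called (4 higher at an unadjusted p under 0.05 in edgeR, and DESeq2 called 0). The lymphoid list had a sum of 24.4 and 24.3 CPM in WT against 15.8 and 14.9 CPM in Haspin-KO, with 0 of 4 tested genes called (3 lower at an unadjusted p under 0.05 in edgeR, and DESeq2 called 0), and its defining markers Ptprc and Il7r were at 0 in all libraries. The part of these markers in the Xlr difference was not tested.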

How the data were processed

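RNA-seq libraries of WT and Haspin-KO E14 mESCs (2 each) were prepared from total RNA with a SMARTER mRNA-Seq kit. Per the labels, the submitters' processing notes name cutadapt (1.9.1), HISAT2 (2.0.1), HTSeq (0.6.1), DESeq2 and mm10. The authors deposited raw read counts per gene and FPKM values, which were recomputed from the counts, exonic lengths and library totals within rounding for 100% of values. Strand setting, treatment of multiply mapping reads and annotation release are not given in the sources used here.

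The counts were filtered by edgeR's filterByExpr (15580 of 55401 genes kept), scaled by TMM and fitted with edgeR (4.0.16, R 4.3.3), using its quasi-likelihood test without a block, with Benjamini-Hochberg adjustment over all genes tested. Each SE was taken as the absolute log2 fold change over the root of the F statistic. Summed counts replaced their copies as 1 row in the same fit. Replicate libraries differed beyond counting noise (chi-square per degree of freedom 6.99 in WT and 5.49 in Haspin-KO), and each was counted as 1 sample. Alternatives were DESeq2 (1.42.0), limma (3.58.1) on log2(FPKM + 0.1) or log2(FPKM + 1) (genes reaching 0.5 FPKM in 2 or more libraries), other scalings, filters, thresholds and windows, thinning, a replicate block, and each library left out. GENCODE M21 gave exons and transcripts, and RefSeq the start windows. Pairs of sequences were aligned globally, with no penalty for end gaps, with Biopython (1.88).

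The members, gene lists and rules were chosen with earlier results of these data known. Named were the 9 copies, relatives with any count, called neighbours and list genes, the 5 most alike genes (1 is not reported here) and defining markers. Genes nearest to the threshold in each list, DNA methylation genes, the genes inside the cluster, the share of Xlr5c, the sequence comparisons and the level per coding transcript were added after the values were seen.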

Additional observations from a re-analysis of the deposited data

How the results depend on the processing

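The copies and their sums kept their direction under every alternative run. DESeq2, DESeq2's size factors, library totals, no filter, a minimum of 10 counts and thinning each called 8 of the 9 copies. At an adjusted p under 0.01, 6 copies passed. With limma on FPKM, 0 of the 9 copies were called for either pseudocount, while all 9 had an unadjusted p under 0.05. With a pseudocount of 0.1, limma gave log2 fold changes of 1.28 for the family sum, 1.29 for Xlr3, 1.22 for Xlr4 and 1.29 for Xlr5. With a pseudocount of 1, they were 1.26, 1.26, 1.14 and 1.22, and none of these sums was called with either. With each library left out in turn, 5 to 8 copies were called, the lowest count without WT replicate 2, and the lone library was then assumed to vary like the others. In the same fits, 0 to 1 neighbours and 0 to 1 genes of the meiotic list were called higher, 0 to 1 X-linked germline genes lower, and, of all X-linked genes besides the copies, 0 to 6 higher and 1 to 5 lower.

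The difference of replicate 1 from replicate 2 in the WT group was correlated with the one in the Haspin-KO group (Pearson r = 0.289 across 15580 genes, which are not independent replicates), but the labels do not say that equal numbers mark a shared preparation. With the replicate block, the family sum was 1.24, 8 copies were called, and 9 X-linked genes besides the copies were called higher, of which 2 were neighbours (DXBay18 and Gm14685). Over all genes, 240 were called higher and 167 lower with the block, against 51 and 78 without it, with 1 residual degree of freedom. With the block edgeR also estimated infinite prior degrees of freedom (7.42 without it), which sets each gene's spread to the common trend. The 2 sets of calls therefore differ in more than the block.

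Without the filter 4 X-linked genes besides the copies were called higher, 1 of them a neighbour (DXBay18). DESeq2 and the minimum of 10 counts each called 1 X-linked gene lower, and 1 random thinning to the smallest library total called 0 X-linked genes besides the copies higher. Limma called 0 neighbours lower with either pseudocount, and called 2 X-linked genes besides the copies higher and 0 lower with a pseudocount of 0.1 and 0 and 0 with a pseudocount of 1. Calls over all genes were 47 and 45 by DESeq2, 125 and 140 without the filter, 21 and 21 by limma with 0.1 and 0 and 0 with 1. The causes were not tested. Xlr5c had the fewest reads of the copies, with 53 to 75 counts in each library, and its log2 fold change ran from 0.43 to 0.81 over the alternatives.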
